A study of Homo sapiens with 8 samples.

Results

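The enzymes described here make asparagine, proline, alanine, aspartate and glutamine or join aspartate to citrulline, and 9 genes were followed: ASNS, ALDH18A1, PYCR1, GPT, GPT2, GOT1, GOT2, GLUL and ASS1. They were taken by symbol from the 15767 genes of the raw count table, where all 9 had a row. RNA-seq was performed on HuH7 cells, a human hepatoma-derived line of wildtype genotype. All cells were kept in glucose-free DMEM at 1% oxygen for 6 h and then reoxygenated for 6 h, which is the oxygen-glucose deprivation and reperfusion (OGD/R) model. The medium of the reoxygenation period held either DMSO (I/R+DMSO, n = 4 libraries) or ginsenoside Rk2, a ginseng saponin, at 20 µM in DMSO (I/R+Rk2, n = 4 libraries), so every fold change compares Rk2 with DMSO after OGD/R. The labels do not say whether libraries of a group came from separate cultures, and p-values measure the spread between these libraries, which may be technical. HuH7 is 1 tumor line, and cells without OGD/R were not analysed here.

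Glutamate stands at the centre of these reactions. Aminotransferases pass its amino group to pyruvate or oxaloacetate, giving alanine or aspartate, and exist as cytosolic and mitochondrial forms. Glutamine synthetase fixes ammonia on glutamate, asparagine synthetase uses glutamine to amidate aspartate, and a short mitochondrial pathway reduces glutamate to proline. In liver these enzymes handle the nitrogen of amino acids, and some of the genes, ASNS above all, are known targets of ATF4, the transcription factor of the amino acid response.

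The promoter of ASNS holds the best studied site of that response, so the promoter sequences of the members were searched. RefSeq (GRCh38.p14) gave entries for 6 of the 9 members, 9 entries in all, and the 250 bases before each start were read on both strands. The search used TGATGNAA, the C/EBP-ATF response element, and CACGTG, the E-box, which do not overlap each other in these promoters. The first was found in 2 of the 6 members with an entry and in 3.14% of all 35116 promoter windows. The second was found in 2 of the 6 and in 6.34% of all windows. Members are counted as genes, with 9 windows in all, and the background as single windows, so the units differ. The ASNS site was known beforehand and led to the choice of the first motif. Its match was therefore fixed in advance, and these shares are not read as an enrichment. Each match is shown within 30 bases, 5′ to 3′ on the strand of the gene, with the match in capitals:
ASNS, chr7:97872458-97872487, minus strand, C/EBP-ATF element: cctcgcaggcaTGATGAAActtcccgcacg
GOT1, chr10:99430804-99430833, minus strand, C/EBP-ATF element on the other strand: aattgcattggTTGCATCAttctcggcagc
ALDH18A1, chr10:95656830-95656859, minus strand, E-box: gggctggcccgcCACGTGgagcgctggctt
ASS1, chr9:130444878-130444907, plus strand, E-box: gcgcgtccccgcCACGTGtccccggtcacc
Counted from the start of the RefSeq entry, the element of ASNS spans positions -68 to -61 and that of GOT1 positions -198 to -191. Both stretches lie inside the GENCODE v29 gene spans given below, which begin further upstream. A match is a description of these letters, and neither binding nor function was measured.

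Library totals ranged from 16374082 to 30310479 counts, the highest being I/R+Rk2 replicate 1. The 12928 genes that reached 10 counts in 4 or more libraries were tested with edgeR's quasi-likelihood test and Benjamini-Hochberg adjustment, and a gene is said to have risen or fallen when its adjusted p-value was below 0.05. Higher in I/R+Rk2 by this rule were 1416 genes, 11.0% of those tested, and lower were 935, 7.23%. With a fold change above 1.5 in addition, 2.46% rose and 0.580% fell. I/R+DMSO replicate 1 had a second principal component score of 78.7, where the other 3 of its group had -48.5 to -41.5, and the counts of members and related genes are therefore also given without it. Across genes the log2 fold change followed gene length (Spearman's rho = 0.388, 12926 genes) and GC content (rho = -0.331, 12722 genes), and after a correction for length 45.1% of the called genes were higher, against 60.2% before it. All 12 hepatocyte markers were expressed, with summed levels of 12181 to 13219 normalized counts relative to the library total (CPM) in I/R+DMSO and 12972 to 13346 CPM in I/R+Rk2. Of the 12, APOB rose (log2 fold change 0.61, adjusted p = 0.0124, edgeR), FGA and FGB fell (-0.34 and -0.27, adjusted p = 0.00386 and 0.0462, edgeR), and 9 did not pass. Of 14 markers of other liver cell types 9 had a row in the count table. PTPRC, CD163, VWF, KDR and DCN were outside it and were listed at 0 FPKM in every library. The summed level of the 9 was 701 to 743 CPM in I/R+DMSO and 628 to 727 CPM in I/R+Rk2, most of it from LYZ at a mean of 646 and 607 CPM, and 2 of the 5 tested, CD14 and KRT19, fell, their part in the results below not being tested. All libraries are of 1 cultured line, HuH7, so these markers are not read as numbers of other liver cells. In bulk RNA, fewer cells with a transcript and less of it per cell cannot be told apart.

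Among the 9 genes, ASNS and ASS1 rose, none fell, and 6 did not pass the test. GPT was below the count filter. The 2 genes that rose make up 25.0% of the 8 tested, where 11.0% of all tested genes rose. The members were chosen with earlier results of these data known, so this share is no independent support. The median log2 fold change of the 8 was 0.14, against -0.00 over all tested genes, and the values lay between -0.13 and 1.00. ASNS and ASS1 were also the members called in each of the 8 fits that left out 1 library, the fit without I/R+DMSO replicate 1 included. The levels of ASNS, ALDH18A1 and ASS1 did not overlap between the groups and were higher in I/R+Rk2, as in 15.4% of all tested genes.

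**Figure D1:**
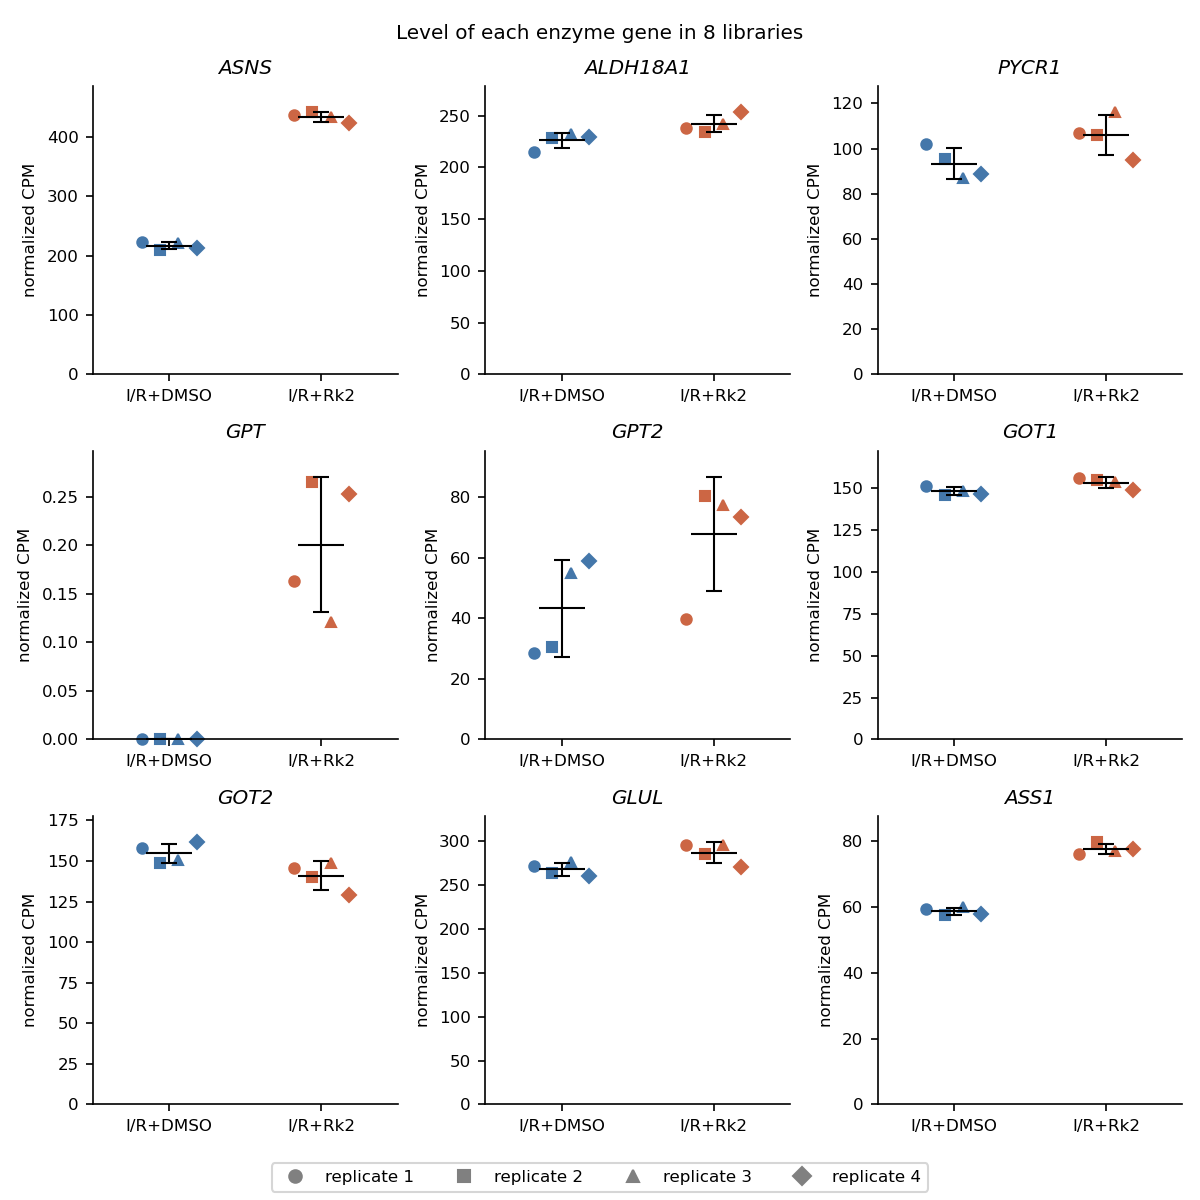
Normalized CPM (linear axis from 0) of the 9 enzyme genes in each of 8 libraries, by group. Points are libraries, with the marker giving the replicate number, and black bars are the mean ± SD of 4 libraries. The groups of ASNS and ASS1 do not overlap, while GPT2 varies 2.80-fold over the libraries.

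ASNS, asparagine synthetase (ENSG00000070669.16, GRCh38 chr7:97852118-97872542, minus strand, GENCODE v29), forms asparagine from aspartate with the amide nitrogen of glutamine. Its normalized levels in I/R+DMSO replicates 1 to 4 were 222, 210, 221 and 213 CPM, and in I/R+Rk2 they were 437, 441, 432 and 423 CPM. The lowest Rk2 library was 201 CPM above the highest DMSO library. The mean was 217 ± 6.01 CPM with DMSO and rose to 433 ± 7.89 CPM with Rk2 (SD, n = 4 libraries per group), a 2.0-fold change, or 1.00 on the log2 scale (standard error 0.0345, 95% interval 0.92 to 1.08, adjusted p = 5.5e-06, edgeR). By p-value it ranked 3 of 12928 genes. The log2 fold change stayed between 0.97 and 1.05 under the 14 other settings and between 0.98 and 1.01 with each library left out in turn, always past the threshold. On the same strand its exons overlap those of AC079781.5, a gene with no row in the count table, so reads of both could have been counted together.

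Proline synthesis starts with ALDH18A1, delta-1-pyrroline-5-carboxylate synthase (ENSG00000059573.8, chr10:95605929-95656706, minus strand), which reduces glutamate, and ends with PYCR1 (ENSG00000183010.16, chr17:81932384-81942412, minus strand), a mitochondrial pyrroline-5-carboxylate reductase. ALDH18A1 had 215, 229, 232 and 229 CPM in the I/R+DMSO libraries and 239, 235, 242 and 253 CPM in the I/R+Rk2 libraries. The groups were 2.43 CPM apart. Its log2 fold change was 0.10 (95% interval 0.01 to 0.19, adjusted p = 0.125, edgeR), which did not pass the threshold over all genes, nor did it under any of 14 other settings, and after the correction for gene length it was 0.02. PYCR1 had 102, 95.5, 87.2 and 88.6 CPM with DMSO and 107, 106, 116 and 94.8 CPM with Rk2. I/R+Rk2 replicate 4 and I/R+DMSO replicates 1 and 2 overlapped. The log2 fold change of PYCR1 was 0.18 (95% interval 0.01 to 0.35, adjusted p = 0.124, edgeR). PYCR1 passed the threshold after the correction for gene length, at 0.25 (adjusted p = 0.0267, edgeR), and for length and GC content together, at 0.29 (adjusted p = 0.00942, edgeR). With a replicate block beside the length correction it did not pass (0.25, adjusted p = 0.0670, edgeR). After the length and the joint correction 7.89% and 6.95% of all tested genes rose. MYADML2, with 0 to 5 counts per library, shares exonic sequence with PYCR1 on the same strand.

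ALT activity, measured in serum as a sign of liver damage, comes from 2 genes, cytosolic GPT (chr8:144502973-144507174, plus strand) and mitochondrial GPT2 (ENSG00000166123.13, chr16:46884378-46931297, plus strand), which both exchange the amino group between glutamate and alanine. GPT was barely detected. It had 0 counts in each I/R+DMSO library and 5, 5, 2 and 5 counts in I/R+Rk2 replicates 1 to 4. This is 0 of 80475847 against 17 of 84895681 counts. With the DMSO group set to a floor of 3 counts over the group, the level in I/R+Rk2 was 5.37-fold higher. The two-sided exact permutation p for CPM was 0.0286, the smallest that 4 libraries against 4 allow. Without the count filter GPT had an adjusted p-value of 0.0316 in edgeR, and it was 0.0153 by limma on unfiltered log2(FPKM + 1) values. GPT entered these unfiltered fits only through its Rk2 reads. The exact p and both adjusted values rest on the same 17 reads and are no separate support for each other. The share of all genes with reads in 1 group only is not given here. On these few reads nothing more can be stated than that each Rk2 library held reads. The floor covers counting error of the DMSO group only, not that of the 17 Rk2 counts. Exons of GPT, PYCR1, GOT1 and GOT2 overlap genes of the opposite strand (AC084125.2, AC145207.4, AL391684.1 and AC092378.1). Whether the counting used strand is not given in the sources used here, so reads of either strand cannot be told apart.

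GPT2 was well covered, with 540 to 1518 counts per library, but its libraries spread widely. It had 28.7, 30.5, 54.9 and 59.0 CPM in I/R+DMSO and 39.9, 80.4, 77.4 and 73.6 CPM in I/R+Rk2. Replicates 1 and 2 were low with DMSO, and replicate 1 was low with Rk2 and lay inside the DMSO range. The log2 fold change of 0.65 had a standard error of 0.311 and a 95% interval from -0.07 to 1.37 (adjusted p = 0.185, edgeR), so a change was not detectable over this spread. Within groups the SD of its log2 CPM, 0.51, was larger than that of 90.9% of tested genes. In FPKM the same 3 libraries were low, at 6.28 and 6.95 in the first 2 DMSO libraries and 9.17 in I/R+Rk2 replicate 1, where the others had 12.5 to 17.4. With each library left out, the estimate ranged from 0.49 to 0.83 and its adjusted p-value in edgeR was 0.0904 or more.

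GOT1 (ENSG00000120053.11, chr10:99396870-99431569, minus strand) and GOT2 (ENSG00000125166.12, chr16:58707131-58734357, minus strand) encode the cytosolic and the mitochondrial aspartate aminotransferase, which together with malate dehydrogenases run the malate-aspartate shuttle. GOT1 was among the steadiest genes, with 151, 146, 148 and 147 CPM in I/R+DMSO and 156, 155, 154 and 149 CPM in I/R+Rk2. The log2 fold change of GOT1 was 0.05 (95% interval -0.03 to 0.13, adjusted p = 0.320, edgeR), and the same gene passed the threshold under 1 setting, the joint correction for length and GC content (0.10, adjusted p = 0.0341, edgeR). GOT2 had 158, 149, 151 and 162 CPM with DMSO and 146, 140, 149 and 129 CPM with Rk2. The highest Rk2 library lay just inside the DMSO range, and the log2 fold change was -0.13 (95% interval -0.26 to -0.01, adjusted p = 0.119, edgeR).

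GLUL, glutamine synthetase (ENSG00000135821.18, chr1:182381704-182392206, minus strand), had 272, 264, 276 and 260 CPM in I/R+DMSO and 296, 286, 296 and 271 CPM in I/R+Rk2. Its log2 fold change was 0.10 (95% interval 0.00 to 0.19, adjusted p = 0.128, edgeR), and no setting took it past the threshold. In FPKM the same gene looked different. The values were 71.7, 111, 79.4 and 116 with DMSO and 81.0, 124, 83.5 and 121 with Rk2, so that replicates 1 and 3 were low and replicates 2 and 4 high in both groups. The highest library was 1.73 times the lowest in FPKM and 1.14 times in CPM. The gene length implied by counts and FPKM was 3430 to 3716 bases in replicates 1 and 3 and 2235 to 2365 bases in replicates 2 and 4. The ratio of the largest to the smallest implied length, 1.66, was above that of 80.9% of 12141 genes, whose median was 1.25. The cause of the split was not tested, and GLUL levels in FPKM rest on it.

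**Figure D2:**
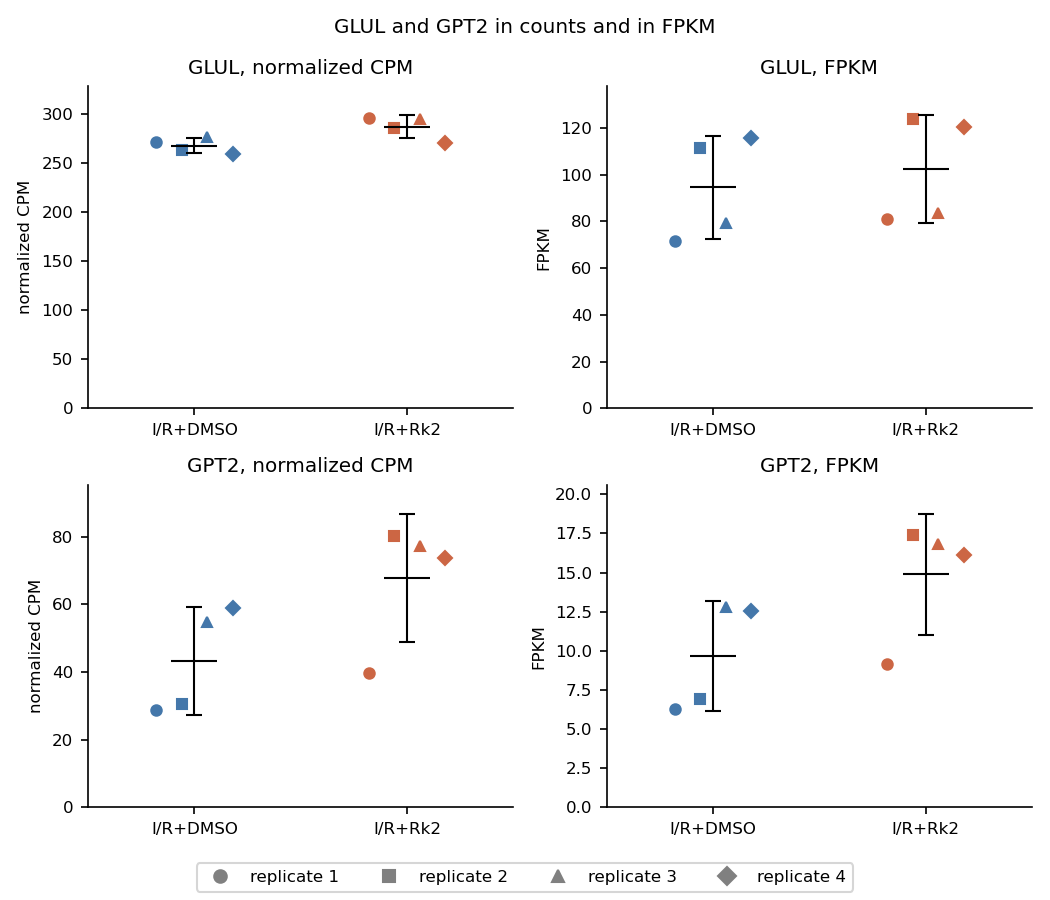
GLUL (top) and GPT2 (bottom) in normalized CPM (left) and in FPKM (right), on linear axes from 0. Points are libraries, with the marker giving the replicate number, and black bars are the mean ± SD of 4 libraries. Within each group GLUL replicates 1 and 3 lie below 2 and 4 in FPKM and, by less, above them in CPM. GPT2 has the same low libraries in both units.

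ASS1, argininosuccinate synthase (ENSG00000130707.17, chr9:130444929-130501274, plus strand), joins aspartate to citrulline in the urea cycle and in arginine synthesis. Its levels were 59.4, 57.6, 60.0 and 58.0 CPM in I/R+DMSO and 76.0, 79.7, 77.0 and 77.7 CPM in I/R+Rk2. The groups did not overlap. The mean of ASS1 was 58.8 ± 1.12 CPM with DMSO and rose to 77.6 ± 1.56 CPM with Rk2 (SD, n = 4 libraries per group). This 1.32-fold change, below the 1.5-fold limit, is 0.40 on the log2 scale (standard error 0.0381, 95% interval 0.31 to 0.49, adjusted p = 6.95e-04, edgeR). It was past the adjusted p threshold under all 14 other settings, with log2 fold changes of 0.37 to 0.50, and with each library left out in turn (0.39 to 0.41). GENCODE v29 names 11 pseudogenes of ASS1, and 4 each of ASNS, GOT2 and GLUL, none of which had a row in the count table. How reads shared with them were counted is not given in the sources used here.

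**Figure D3:**
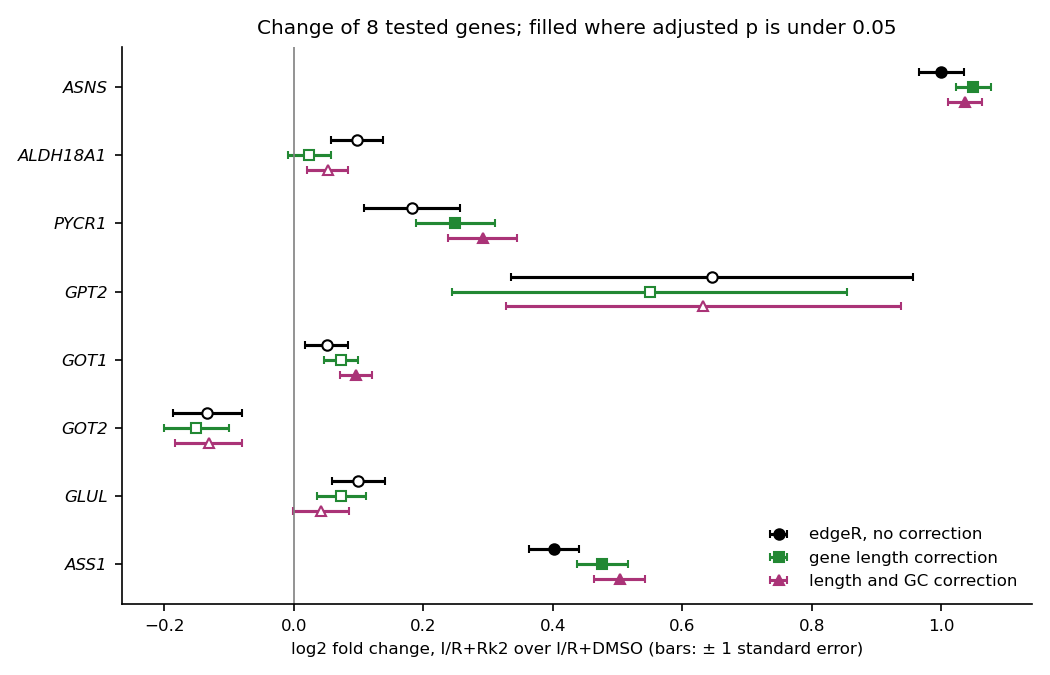
Log2 fold change of the 8 tested genes, I/R+Rk2 over I/R+DMSO, from edgeR without a correction (circles), with a gene length correction (squares) and with a length and GC correction (triangles). Bars are ± 1 standard error and filled symbols have an adjusted p-value below 0.05. ASNS at 1.00 and ASS1 at 0.40 are filled in all 3 fits, PYCR1 in both corrected fits and GOT1 in the last.

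Levels of different genes were compared per length, in FPKM. In I/R+DMSO the order of mean levels was ASNS (110 FPKM), GLUL (94.5), GOT1 (64.1), ALDH18A1 (59.1), GOT2 (54.8), PYCR1 (51.7), ASS1 (35.3), GPT2 (9.65) and GPT, which was listed at 0. The libraries of ASNS and GLUL overlapped, as did those of ALDH18A1 and GOT2 and those of GOT2 and PYCR1. In I/R+Rk2 ASNS stood at 222 ± 5.45 FPKM (SD, n = 4), and its lowest library, 218, was above the highest of GLUL, 124. GOT1, ALDH18A1, PYCR1 and GOT2 followed, each overlapping the next, with means from 67.9 to 53.0 FPKM. ASS1 at 46.3, GPT2 at 14.9 and GPT at 0.0822 FPKM came last, each apart from its neighbors.

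Whether related enzymes moved apart was tested with the log2 ratio of 2 genes within each library, in which library size cancels. The test was a two-sided exact permutation test, with Benjamini-Hochberg adjustment over the 5 ratios of the design, 4 of which are reported. CPM are not divided by length, so only the shift of a ratio between groups is read, not its sign. ASNS over GLUL, a user and a maker of glutamine, lay between -0.33 and -0.28 in I/R+DMSO and between 0.55 and 0.64 in I/R+Rk2, a shift of 0.90 (exact p = 0.0286, adjusted p = 0.0476). GOT1 over GOT2, cytosolic over mitochondrial, lay between -0.14 and -0.02 with DMSO and between 0.05 and 0.20 with Rk2, a shift of 0.18 with the same exact p-values of 0.0286 and, adjusted, 0.0476. Adjusted over the 4 reported ratios alone, the exact p of both was 0.0571, which does not pass 0.05. The shift of ASNS over GLUL follows from the levels of ASNS and GLUL given above, so it is no independent support. PYCR1 over ALDH18A1, the last over the first step of proline synthesis, shifted by 0.08 with overlapping groups (exact p = 0.457). After the correction for gene length this shift was 0.22 (adjusted exact p = 0.0857). Those of ASNS over GLUL and GOT1 over GOT2 were then 0.98 and 0.22 (both adjusted exact p = 0.0381). The ratio that is not reported also entered this adjustment. GPT2 over GPT shifted by -0.89 (exact p = 0.0857, adjusted p = 0.107), a value that rests on the 0.1 CPM added to GPT. In FPKM none of the reported ratios passed the adjusted threshold, and that of GOT1 over GOT2 shifted by 0.13 (adjusted exact p = 0.238). Without I/R+DMSO replicate 4 the adjusted exact p-values were 0.0714 for ASNS over GLUL and 0.0952 for GOT1 over GOT2. The shifts were then 0.91 and 0.16, and the groups of ASNS over GLUL still did not overlap. An adjusted value also depends on the p-values of the other ratios.

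**Figure D4:**
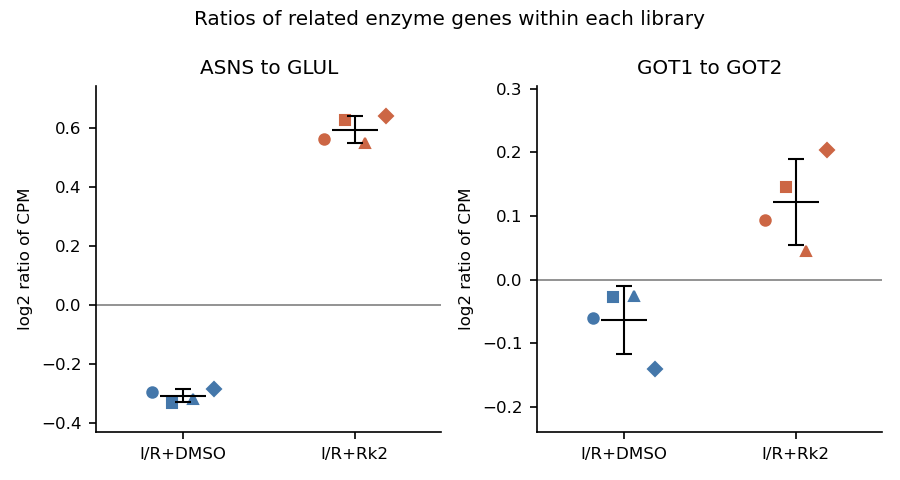
Log2 ratio of normalized CPM within each library for 2 pairs of related enzyme genes, by group. Points are libraries (circle, square, triangle and diamond for replicates 1 to 4) and black bars the mean ± SD of 4 libraries. The axes do not start at 0 and differ in range. In each pair the groups do not overlap, with shifts of 0.90 (ASNS over GLUL) and 0.18 (GOT1 over GOT2).

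Further genes that handle these amino acids were described with a list of 50, of which 48 had a row in the count table and 39 were tested. Of these, 5 rose, 1 fell and 33 did not pass the threshold, so 12.8% rose, against 11.0% of all tested genes. Without I/R+DMSO replicate 1, 4 rose and 1 fell. The median log2 fold change was 0.02. GFPT1, which spends glutamine to make glucosamine 6-phosphate, had the largest rise, 0.78 on the log2 scale, from a mean of 143 ± 8.34 CPM without Rk2 to one of 247 ± 6.54 CPM with it (SD, n = 4 libraries per group, adjusted p = 1.04e-04, edgeR). PSAT1, the aminotransferase of serine synthesis, had a log2 value of 0.63 (adjusted p = 3.37e-05, edgeR) and BCAT1, the cytosolic branched-chain aminotransferase, of 0.59 (adjusted p = 0.00255, edgeR). The fold changes of these related genes are without the correction for gene length. Lengths implied by counts and FPKM were 10273 bases for GFPT1, 2596 for PSAT1 and 6211 for BCAT1. Smaller rises were found for OAT, ornithine aminotransferase (0.28, adjusted p = 0.0114, edgeR), and for SLC25A13, a mitochondrial aspartate-glutamate carrier (0.22, adjusted p = 0.0445, edgeR), whose libraries overlapped between groups. SLC25A13 was thus close to the threshold. In the fits that left out 1 library the related genes that rose numbered 4 to 5, and which of them was lost is not given here. CTPS1, which uses glutamine to make CTP, fell, with a log2 fold change of -0.15 (adjusted p = 0.0340 by edgeR). Of the 8 fits that left out 1 library CTPS1 passed in 1, the one without I/R+DMSO replicate 1, and it did not pass with library size scaling, a replicate block or limma on FPKM. Its FPKM were 54.9 ± 0.874 with DMSO and 60.0 ± 17.3 with Rk2 (SD, n = 4 libraries per group). None of the 10 tested genes around aspartate, arginine and the urea cycle passed the threshold, with log2 fold changes from -0.18 to 0.29, while ASS1 rose by 0.40. Of 5 tested shuttle genes, SLC25A13 rose and the other 4 had log2 fold changes between -0.43 and -0.07 that did not pass.

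ASNS was also set beside 15 genes of the amino acid response, of which 14 were tested. Of these 10 rose, 71.4%, and none fell, where 11.0% of all tested genes rose and 7.23% fell. The median log2 fold change was 0.59, against -0.00 over all tested genes. Among the regulators, the log2 fold change was 0.43 for ATF4 (adjusted p = 0.00186, edgeR), 0.65 for CEBPB (adjusted p = 1.7e-04, edgeR) and 0.52 for CEBPG (adjusted p = 1.8e-04, edgeR). Larger values were found for CHAC1, which breaks down glutathione (1.75), SESN2, a leucine sensor (1.32), the cystine transporter SLC7A11 (1.28) and the lipoprotein receptor VLDLR (1.02), each with an adjusted p-value of at most 1.5e-04 in edgeR. PHGDH, the first enzyme of serine synthesis, had a value of 0.53 (adjusted p = 9.54e-04, edgeR). The other 2 that rose, named after their values were seen, were ATF3 (1.35, adjusted p = 0.0247, edgeR) and DDIT3 (1.05, adjusted p = 0.0298, edgeR). ATF4 targets were known to be high in these data when the list was made, so its count is no independent support. The fold changes of this list are also without the correction for gene length.

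**Figure D5:**
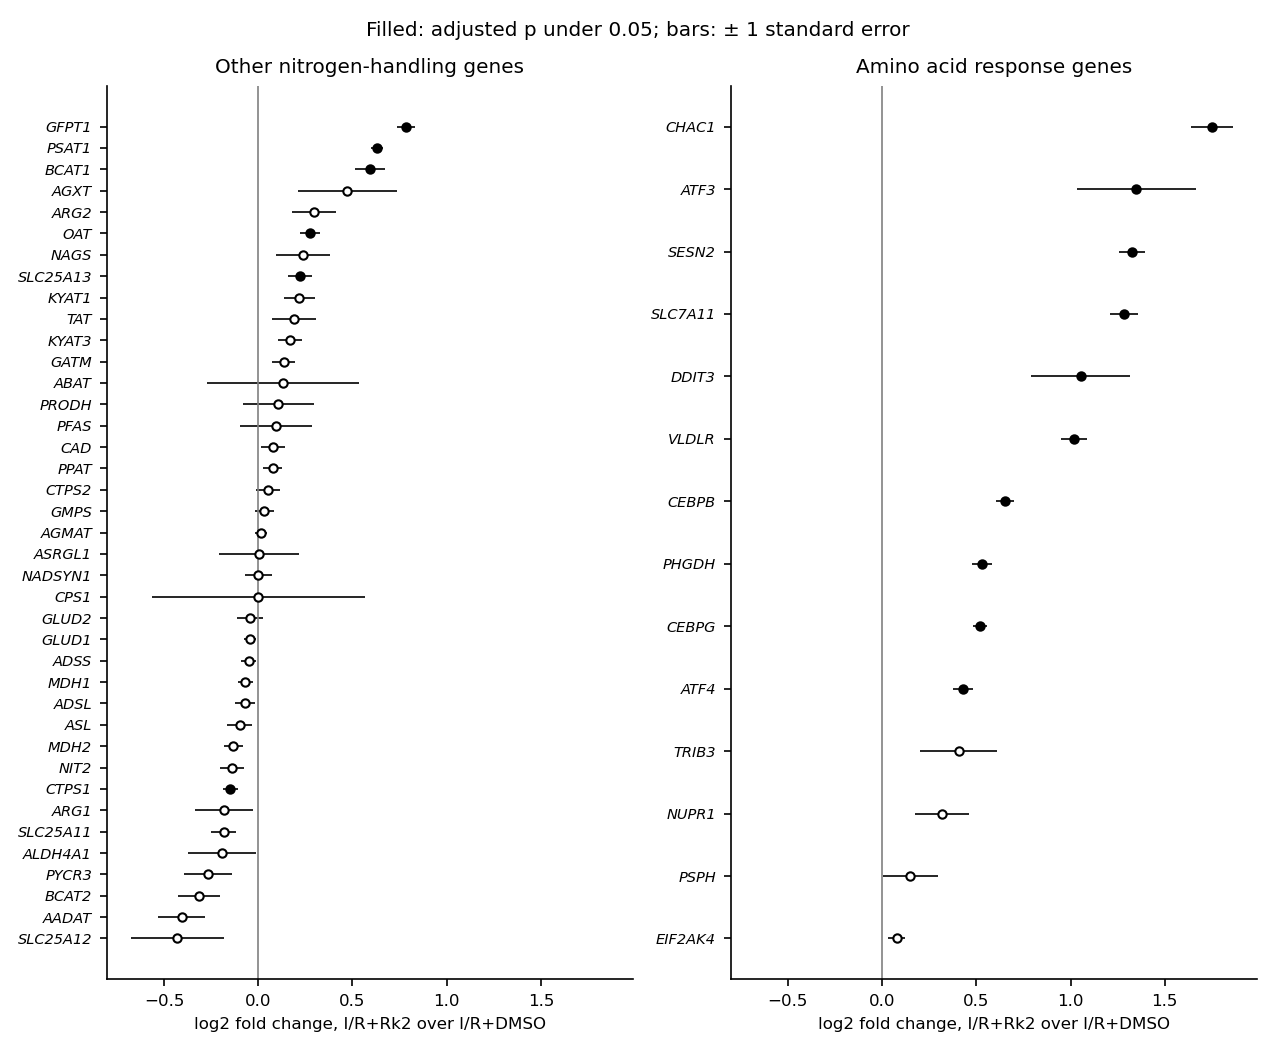
Log2 fold change, I/R+Rk2 over I/R+DMSO, of 39 tested genes of nitrogen handling (left) and 14 tested genes of the amino acid response (right), in order of size, from edgeR. Bars are ± 1 standard error and filled points have an adjusted p-value below 0.05. On the left 5 filled points lie above 0 and 1 below, and on the right 10 lie above 0.

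The 5 tested genes whose log2 CPM followed ASNS most closely over the 8 libraries were STC2 (Pearson's r = 0.998), TSC22D3 (0.997), INHBE (0.996), DNAJB9 (0.996) and PSAT1 (0.996). These values describe 8 points in 2 groups, and most of each comes from the difference between the groups. After the group means were removed, r was 0.27 for STC2, 0.74 for TSC22D3, 0.21 for INHBE, 0.55 for DNAJB9 and -0.24 for PSAT1. STC2 rose 2.85-fold, TSC22D3 2.23-fold, INHBE 3.95-fold, DNAJB9 2.60-fold and PSAT1 1.55-fold, where ASNS rose 2.0-fold.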

How the data were processed

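RNA-seq of 8 HuH7 libraries was re-analysed. Libraries had been made with an MGIEasy kit (250 ng RNA input). The deposited count table holds unnormalized read counts of 15767 genes, and the FPKM table of the authors, scaled by transcript length and library size, holds 19799. The submitters' processing notes name hg38, FastQC 0.11.5, HISAT2 2.2.1 and StringTie 1.3.3, and the annotation and the read counting tool are not given in the sources used here. Library totals were 16374082 to 30310479, so that members other than GPT rested on 540 counts or more per library. Counts on 22 symbols that had become dates, 0.111% of the total, were kept in the totals and assigned to no gene.

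Differential expression was tested with edgeR 4.0.16 (R 4.3.3, robust quasi-likelihood, TMM) on the 12928 genes reaching 10 counts in 4 or more libraries. The model held the condition alone, and p-values were adjusted over all tested genes by Benjamini-Hochberg. Standard errors are the log2 fold change over the root of F. CPM are TMM-normalized. Ratios used CPM + 0.1. Alternatives were DESeq2 1.42.0, other normalizations and filters, limma 3.58.1 on log2(FPKM + 1) and log2(FPKM + 0.1) at a mean FPKM of at least 0.5 or unfiltered, voom with sample weights, a replicate block, loess corrections (span 0.5) for gene length and for length with GC content, and leaving out each library. Length was derived from counts and FPKM, and GC content from GENCODE v29 transcripts, which also gave coordinates. The steps were tested on simulated data.

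All members are named. From the list of related genes and from that of the amino acid response, genes with an adjusted p-value below 0.05 are named, at most the 8 with the smallest p per direction. The 5 genes nearest ASNS by correlation were also named. Some related genes, and 1 ratio that entered the adjustment, are not reported here. The members and lists were chosen with earlier results of these data known.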

Additional observations from a re-analysis of the deposited data

Results flagged for a closer look

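In 34 sets of 4 libraries, each 1 member in 1 group and unit, the gap of the most distant library was set against the range of the group, and chance alone would pass the 95% critical value of 0.829 in about 1 of 20. It was passed 3 times. For GPT2 in I/R+Rk2, replicate 1 lay below the other 3, with a ratio of 0.834 in CPM (39.9 against 73.6 to 80.4) and of 0.847 in FPKM (9.17 against 16.1 to 17.4). These are the same reads in both units. For ALDH18A1 in I/R+DMSO, replicate 1 lay below the others in FPKM, at 55.3 against 60.1 to 60.5, with a ratio of 0.916.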

How the results depend on the processing

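ASNS and ASS1 kept their direction and stayed past the threshold under all 14 other settings and in the 8 fits without 1 library, and no member changed sign in any of them. Members that rose numbered 2 in each fit without 1 library and 4 after the length and GC correction, which added PYCR1 and GOT1, and 3 with the length correction alone (PYCR1) or without a filter in edgeR and limma (GPT). GPT entered the unfiltered fits only through its 17 reads in I/R+Rk2. The 1 related gene that fell, CTPS1, was not called in all settings: such genes numbered 2 with DESeq2, upper-quartile scaling, the 50-count filter, voom and the block with length correction, 0 with library size only, a replicate block or limma on FPKM, 3 with the length correction and 7 with length and GC, and 0 to 1 without 1 library, where it was AADAT in place of CTPS1 without I/R+Rk2 replicate 2. Those that rose numbered 5, and also 5 with DESeq2, its size factors, library size only, no filter, the 50-count filter and the replicate block, 4 with upper-quartile scaling, limma on FPKM, voom, the length and the length and GC corrections, 3 with block and length correction, and 4 to 5 without 1 library. Over all genes 2351 were called, 1121 and 1106 with limma on log2(FPKM + 1) and log2(FPKM + 0.1), 971 unfiltered, 1510 with block and length correction, and 1291 to 2282 without 1 library, fewest without I/R+Rk2 replicate 4 and 1461 and 1512 without replicates 2 and 3. The share of calls that were higher, 60.2%, was 48.9% with upper-quartile scaling, 70.6% with library size only, 72.2% to 72.8% with limma on FPKM, and 46.2%, 45.1% and 43.9% with the block and length, length, and length and GC corrections.

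The deviations of same-numbered libraries correlated at only -0.00945 to 0.0845 across genes. Whether replicate numbers pair the libraries was not settled, since a weak correlation over all genes does not exclude shared handling. The replicate block gave 1814 calls and changed the call of no member, while PYCR1, called with the length correction, was not called once the block was added (adjusted p = 0.0670, edgeR). In paired sign flips the shifts of 0.185 (GOT1 over GOT2) and 0.901 (ASNS over GLUL) had an adjusted p of 0.156, and 4 pairs cannot go below an unadjusted 0.125. In FPKM these were 0.134 and 0.900, with an adjusted exact p of 0.238 and 0.0714. Without 1 library they lay at 0.158 to 0.210 and 0.886 to 0.917. The shift of GPT2 over GPT lay at -1.105 to -0.702, and that of PYCR1 over ALDH18A1 at 0.0391 to 0.159. GPT, with 0 to 5 counts per library, was the 1 member below the count filter.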

Other observations

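Some liver enzymes of the same reactions had few or no counts in these HuH7 libraries. GLS2, the glutaminase typical of liver, had 0 to 4 counts per library, and OTC, ornithine transcarbamylase of the urea cycle, had 0 to 3. CPS1, which makes carbamoyl phosphate for that cycle, had 7 to 38 counts over the 8 libraries. ARG1, the liver arginase, was tested, at 53 to 73 counts in each library. In the same libraries ASS1 had 1090 to 2323 counts and ASL, the enzyme that follows it, 1315 to 2083. Differences between the groups in GLS2 and OTC were not detectable at this depth.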
